A study of Mus musculus with 6 samples.

Results

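Semaphorins, ephrins, netrins and Slits are the classical guidance cues of growing axons, and plexins, Eph receptors, Unc5 receptors and Robos are the receptors that read them. Expression of these families was examined in mouse lung with and without activation of a human SRY transgene. Members were chosen by gene symbol alone: semaphorin classes 3 to 7, plexins A to D, EphA and EphB receptors, ephrin-A and ephrin-B ligands, netrins, Slits, Robos and symbols beginning with Unc5. The rule found 89 probes for 61 gene symbols, among 25697 probes for 18138 symbols on the array. Of the 61 symbols, Unc50 (a Golgi membrane protein) and Unc5cl are not netrin receptors, and neither was detected on any array.

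The data were total RNA of whole lungs from male mice at postnatal day 6 (FVB in the labels, FVB/N in the study's methods), hybridised to Illumina MouseRef-8 BeadChips with 1 array per mouse, 3 hSRY-OFF and 3 hSRY-ON. The group names refer to the Signalox-hSRY transgene, a single copy at the H11 locus in which the ubiquitous CAG promoter drives DsRed2 until Cre removes that segment. In hSRY-ON mice the Cre had come from the egg of a Ddx4-Cre mother, so FLAG-tagged human SRY and EGFP were switched on in the single-cell embryo, and the mice chosen for arrays did not themselves carry Ddx4-Cre. Per the study's methods, hSRY-OFF names the unrecombined transgene, but that text also uses littermates without the transgene as controls, so the genotype of the hSRY-OFF mice rests on their label. A transgene active in every cell does not mark which lung cells a change in whole-lung RNA came from.

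In the nervous system these families steer axons by attraction and repulsion at short or long range. Secreted class 3 semaphorins act mostly through a neuropilin and a plexin, ephrins and Eph receptors signal between touching cells in both directions, netrins act through Dcc and Unc5 receptors, and Slits act through Robos. The same ligands and receptors pattern blood vessels and epithelium, and Sema3e with Plxnd1, ephrin-B2 with Ephb4, and netrins with Unc5b are well known from endothelium.

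The promoters of 3 members are shown because these genes lie at the centre of the semaphorin results: Sema3e, the ligand of Plxnd1, Plxnd1 itself, and Plxna2, the plexin that moved the other way. Each is the RefSeq window of 300 bases, from 250 before the start of the gene to 50 after, written 5′ to 3′ on the strand of the gene, with each CG in capitals.
Sema3e promoter, GRCm38.p6 chr5:14025026-14025325, plus strand: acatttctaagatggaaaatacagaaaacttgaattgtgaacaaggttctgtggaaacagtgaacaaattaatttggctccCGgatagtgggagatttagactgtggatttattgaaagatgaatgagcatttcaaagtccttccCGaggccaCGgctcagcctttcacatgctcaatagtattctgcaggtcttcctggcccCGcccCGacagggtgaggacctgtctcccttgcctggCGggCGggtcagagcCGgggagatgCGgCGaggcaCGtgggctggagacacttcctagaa
Plxnd1 promoter, GRCm38.p6 chr6:115994956-115995255, minus strand: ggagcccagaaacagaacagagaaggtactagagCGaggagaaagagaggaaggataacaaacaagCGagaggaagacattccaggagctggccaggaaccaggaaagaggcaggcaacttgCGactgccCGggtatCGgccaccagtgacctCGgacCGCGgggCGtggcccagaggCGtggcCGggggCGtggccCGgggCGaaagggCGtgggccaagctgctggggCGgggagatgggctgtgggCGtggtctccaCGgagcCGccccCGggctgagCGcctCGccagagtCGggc
Plxna2 promoter, GRCm38.p6 chr1:194619579-194619878, plus strand: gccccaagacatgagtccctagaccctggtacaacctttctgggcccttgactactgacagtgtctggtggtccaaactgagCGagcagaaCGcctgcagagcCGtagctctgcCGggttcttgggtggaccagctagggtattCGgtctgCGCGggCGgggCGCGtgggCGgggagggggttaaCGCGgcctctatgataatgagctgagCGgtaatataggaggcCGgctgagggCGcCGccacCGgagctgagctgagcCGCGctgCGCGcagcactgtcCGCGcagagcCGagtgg
The Sema3e window held 11 CGs, the Plxnd1 window 23 and the Plxna2 window 25, against a median of 7 over all 32851 RefSeq windows. The letters AACAAT on either strand (read as ATTGTT on the other), a core that SOX and SRY proteins recognise, stood in 3521 of those windows (10.7%). They stood in 0 of the 21 windows of the 15 called members that matched the RefSeq table, and in 3 of the 67 windows (4.48%) of the 53 members that matched in all. A match or its absence describes only the letters of these short windows.

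Of the 89 member probes, 58 (65.2%) for 42 genes were detected well enough to test, here a detection p of less than 0.05 on 3 or more of the 6 arrays. Detection on all 6 arrays held for 45 of them. A further 12 member probes were detected on 1 or 2 arrays and 19 on none. Among those 12, the detection was in hSRY-OFF mice only for 10 and in hSRY-ON mice only for 1, whereas 49.4% of the 1856 such probes on the whole array were detected in hSRY-OFF mice only. No test was made for the genes Efna2, Efna3, Epha5, Epha6, Epha8, Epha10, Plxna1, Plxna3, Plxna4, Plxnb3, Plxnc1, Sema3c, Sema5b, Sema6c, Slit1, Unc50, Unc5a, Unc5cl and Unc5d. Sema3c, a secreted semaphorin, was detected in 1 hSRY-OFF mouse and in none of the hSRY-ON mice.

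Of the 58 tested probes, 20 (34.5%) for 17 genes differed between hSRY-ON and hSRY-OFF at an adjusted p under 0.05 in limma, against a background of 26.9% of all 13841 probes tested. Lower in hSRY-ON were 14 probes (24.1%, background 13.3%) of 11 genes, and higher were 6 probes (10.3%, background 13.6%) of 6 genes. The array values of the groups did not overlap for 34 member probes (58.6%), against 46.6% of all tested probes. These 34 comprised the 20 called probes and 14 others. The median change of the tested members was -0.31 on the log2 scale and that of all tested probes was -0.03. Without background correction these medians were -0.12 and -0.02, and with a single scaling factor as well they were -0.14 and -0.04. Fitted changes were above 0 for 17 members and below 0 for 41, against 6482 above and 7359 below 0 among all tested probes. Changes of called probes ranged from -1.93 to -0.51 among those that fell and from 0.39 to 0.89 among those that rose, and 6 called probes changed 2-fold or more with probes undetected in hSRY-ON taken at their bound.

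Some of the probes that fell were dim. The called probes of Sema3e and Epha7 passed the filter through the hSRY-OFF arrays alone, so they could only pass by being high there. Among the 45 members detected on all 6 arrays, 9 were called lower (20%) and 6 higher (13.3%), with a median change of -0.22. Of the 11783 probes of the whole array detected on all 6, 12.9% were called lower and 13.9% higher, with a median of -0.03.

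**Figure D1:**
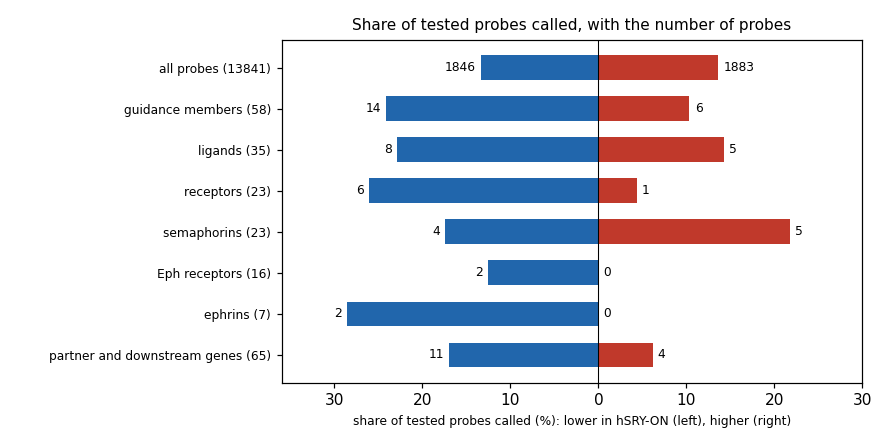
Share of tested probes called lower (blue, left) or higher (red, right) in hSRY-ON, in percent of the tested probes of each set, with the number of called probes at the bar and the number tested in brackets. Guidance members had 14 of 58 probes called lower and 6 higher, while the whole array was near balance with 1846 lower and 1883 higher.

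The counts depended on the arrays in the fit. Without hSRY-OFF replicate 1 the called members numbered 7 of 54 (13%, against 11.2% of all probes), without hSRY-OFF replicate 2 they numbered 8 of 55 (14.5%, against 12.1%) and without hSRY-OFF replicate 3 they were 12 of 55 (21.8%, against 15.5%). Leaving out hSRY-ON replicate 2 gave 12 of 58 (20.7%, against 17.7%). The share called lower was above that of all tested probes in each of these 4 fits, with 11.1%, 10.9%, 20% and 15.5% of the members against 4.42%, 4.85%, 6.94% and 8.42% of all tested probes.

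**Figure D2:**
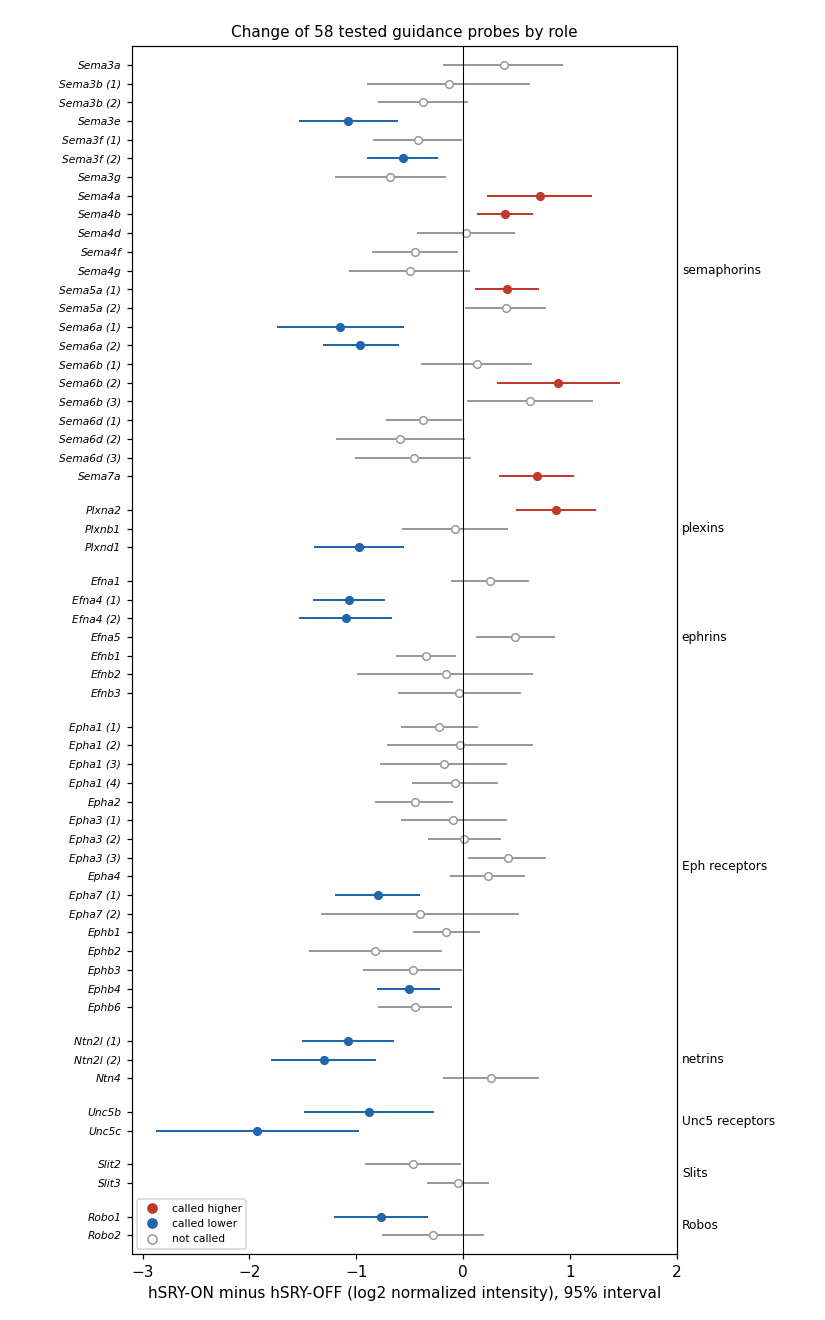
Change of each of the 58 tested guidance probes, as hSRY-ON minus hSRY-OFF in log2 normalized intensity on the horizontal axis, grouped by role, with the 95% interval from limma. Filled blue points are called lower, filled red points called higher and open points not called, and a number after a symbol tells probes of the same gene apart. Unc5c lay farthest from 0 at -1.93, and every called receptor except Plxna2 lay below 0.

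Among plexins, the receptors of semaphorins, 3 probes were tested and the 2 called moved in opposite directions. Plxnd1, the endothelial receptor of Sema3e, read 8.99, 9.49 and 8.89 in hSRY-OFF replicates 1 to 3 and 8.17, 8.08 and 8.19 in hSRY-ON replicates 1 to 3 (log2 normalized intensity, the scale and order used throughout). All 3 hSRY-ON mice lay below all 3 hSRY-OFF mice, and the hSRY-ON mice were closely alike. Plxnd1 was thus 1.96-fold lower, a change of -0.97 ± 0.17 (SE, 95% interval -1.39 to -0.56, adjusted p 0.00889). Plxna2, a receptor for class 6 semaphorins and, with neuropilins, for class 3, read 8.96, 9.06 and 9.12 against 9.70, 10.19 and 9.87. It was 1.83-fold higher, again with no overlap (0.87 ± 0.15, interval 0.51 to 1.24, adjusted p 0.00829). Both calls were kept with each array left out in turn. Plxnb1 did not pass the test (-0.07, interval -0.56 to 0.41, adjusted p 0.812).

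In whole lung, fewer cells of a type and less RNA per cell cannot be told apart. Of 10 endothelial markers, 9 were detected (Kdr was not), and the summed normalized intensity of the list (the brightest probe of each gene) was 62023 to 65443 in hSRY-OFF and 45761 to 51338 in hSRY-ON mice. Of these 9 genes, 4 were called lower (Cdh5, Cldn5, Esam and Tie1), Eng was called higher and 4 were not called. The 7 lung epithelial markers were all detected, with sums of 84069 to 89133 in hSRY-OFF and 85991 to 93369 in hSRY-ON mice. Of these 7 genes, Sftpb was called higher and 6 were not called. Smooth muscle and pericyte markers summed to 29138 to 31365 and to 15175 to 21902, with 3 of 5 tested genes called lower and Cnn1 not detected, and proliferation markers summed to 5689 to 7080 and to 1715 to 3654, with 5 of 6 called lower. The part of these marker shifts in the guidance results was not tested.

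Semaphorins were split by class. Of 23 tested probes, 4 probes of 3 genes were called lower (17.4%, background 13.3%) and 5 probes of 5 genes higher (21.7%, background 13.6%). Class 3, the secreted semaphorins, had 2 probes called lower of 7 tested and none higher. Class 4 had 2 called higher of 5 and none lower, class 5 had 1 called higher of 2, class 6 had 1 called higher and 2 lower of 8, and class 7 had its only tested probe called higher. Within class 4, Sema4f (-0.45, adjusted p 0.0849) and Sema4g (-0.50, adjusted p 0.16) were fitted below 0 and not called. Differences between classes were not tested.

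Sema3e, the secreted ligand of Plxnd1, read 6.06, 6.01 and 6.18 in hSRY-OFF and 5.40, 4.67 and 4.96 in hSRY-ON mice. It was detected on all 3 hSRY-OFF arrays and was not well above background on any hSRY-ON array, so the fall is a bound. Sema3e was at least 1.6-fold lower (fitted change -1.08 ± 0.19, adjusted p 0.00899), with each hSRY-ON array taken at the level of its dimmest detected probe unless Sema3e itself was above that. Without background correction the fitted change was -0.32, and the call was kept. The other Sema3e probe was detected on no array.

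Sema3f, the secreted ligand that prefers neuropilin 2, fell from 11.13, 11.22 and 11.10 to 10.80, 10.56 and 10.40 at the probe ILMN_2635631. The fall was 1.48-fold with no overlap (-0.56 ± 0.14, interval -0.89 to -0.24, adjusted p 0.0244). Its call was lost when any 1 of the hSRY-OFF arrays or replicate 2 of hSRY-ON was left out, with an adjusted p of up to 0.0967 and a change that stayed between -0.67 and -0.47. The replicate block also ended it (adjusted p 0.0532). The other tested Sema3f probe read 11.74, 11.68 and 11.65 against 11.59, 11.23 and 10.97 and missed the threshold (-0.42, adjusted p 0.106). Sema3g, a class 3 semaphorin of endothelium, was close to the threshold (-0.68, interval -1.19 to -0.17, adjusted p 0.0565), and Sema3a and Sema3b were not called. Their coreceptor Nrp1 read 12.70, 12.46 and 12.48 against 12.15, 12.08 and 12.32 (-0.36, adjusted p 0.0763) at 1 probe and changed by -0.26 (adjusted p 0.186) at the other. Nrp2 changed by -0.47 (adjusted p 0.119) at its only tested probe.

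Sema6a, a transmembrane semaphorin that binds class A plexins, fell at both of its probes. Values at ILMN_2705946 were 6.60, 6.64 and 6.44 in hSRY-OFF and 5.69, 5.36 and 5.77 in hSRY-ON mice, a 1.94-fold fall (-0.96 ± 0.15, adjusted p 0.00535) whose call was kept with each array left out. At ILMN_1215472 they were 6.63, 6.81 and 6.29 against 5.24, 5.11 and 5.95, a 2.21-fold fall (-1.15 ± 0.25, adjusted p 0.0168). Both probes were dim in hSRY-ON mice, with detection on 2 and 1 of the 3 arrays, and the call of the latter was lost without hSRY-OFF replicate 1 or 2 or hSRY-ON replicate 2 (adjusted p up to 0.0693). Without background correction the falls were -0.32 and -0.37, and both calls were kept. Sema6a was thus lower while Plxna2, one of its receptors, was higher in the same 3 mice.

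Sema6b, a class 6 relative, rose at 1 of its 3 tested probes. There it read 7.0, 7.10 and 7.11 against 7.70, 8.53 and 7.66, with hSRY-ON replicate 2 far above the other hSRY-ON mice (1.86-fold; 0.89 ± 0.24, adjusted p 0.0328). Its call was lost without any 1 hSRY-OFF array, with an adjusted p of up to 0.105, and without background correction the rise was 0.52. With a single scaling factor as well it was 0.45 and not called (adjusted p 0.0601). The other Sema6b probes changed by 0.63 (adjusted p 0.101) and 0.13 (adjusted p 0.688). The 3 tested probes of Sema6d changed by -0.37, -0.46 and -0.59, with adjusted p from 0.104 to 0.171.

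The remaining semaphorins that rose sit in the membrane. Sema7a, anchored by a lipid tail and a ligand of integrins, read 9.43, 9.45 and 9.18 in hSRY-OFF and 10.12, 10.17 and 9.84 in hSRY-ON mice, 1.61-fold higher with no overlap (0.69 ± 0.14, interval 0.35 to 1.03, adjusted p 0.0141). That call was lost without hSRY-OFF replicate 1 or 3 (adjusted p up to 0.054). Sema4a, best known from immune cells, read 10.32, 11.09 and 10.92 in hSRY-ON mice against 10.16 and 10.02 in hSRY-OFF replicates 1 and 3, with replicate 2 just below these. It was 1.65-fold higher (0.72 ± 0.21, interval 0.23 to 1.2, adjusted p 0.0408), although hSRY-ON replicate 1 lay only just above the hSRY-OFF mice.

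Sema4b, a relative of Sema4a, rose least of the called probes, from 9.88, 9.95 and 9.80 to 10.24, 10.27 and 10.30 (1.31-fold; 0.39 ± 0.11, adjusted p 0.0371). Its hSRY-ON values were nearly equal. Sema5a, a transmembrane semaphorin with thrombospondin repeats, read 9.99, 10.16 and 9.93 against 10.56, 10.42 and 10.34 at ILMN_2604224 (1.33-fold; 0.41 ± 0.12, adjusted p 0.0476), and its other tested probe changed by 0.40 (adjusted p 0.0987). Of the 6 fits that each left out 1 array, the calls of Sema4a, Sema4b and Sema5a were kept in 1 each, with an adjusted p of up to 0.125, 0.122 and 0.151 respectively. With the replicate number as a block their adjusted p was 0.0749, 0.0936 and 0.0938. Macrophage markers were higher in the same mice, with sums of 3168 to 3451 in hSRY-OFF and 6184 to 10963 in hSRY-ON mice and 4 of 6 genes called higher. Among hSRY-ON mice replicate 2 was highest for this sum and for Sema4a, Sema6b and Sema7a. Sema4b was highest in replicate 3 (10.30) and Sema5a in replicate 1 (10.56). Mesothelial markers summed to 3810 to 4073 and 8012 to 11325, with all 3 genes on the array called higher. Whether the rise of these semaphorins followed those cells was not tested.

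**Figure D3:**
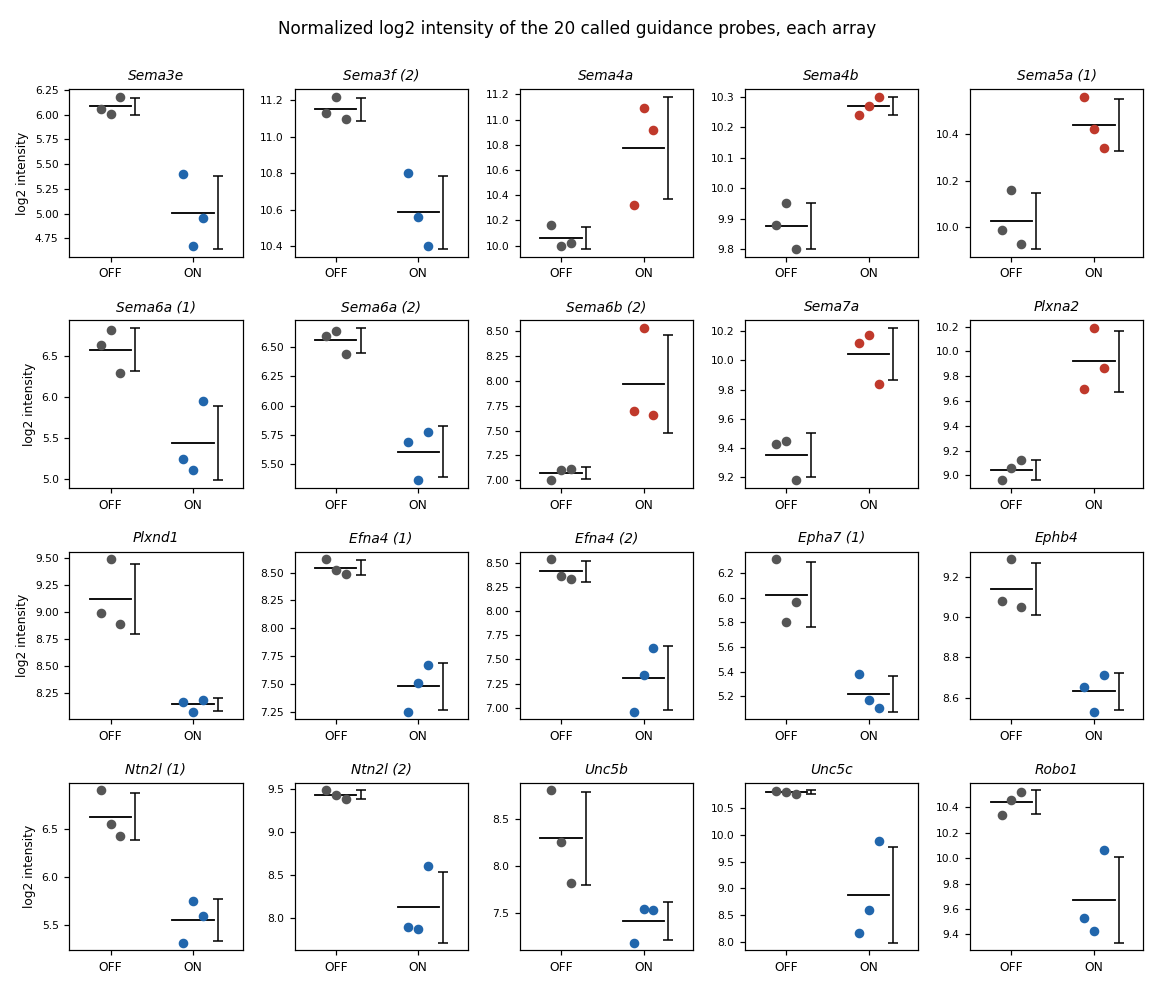
Log2 normalized intensity of the 20 called guidance probes on each array, with hSRY-OFF in grey and hSRY-ON in blue where lower or red where higher. Each point is 1 mouse, placed left to right as replicates 1 to 3, the horizontal line is the group mean and the bar beside it is ± 1 SD (n = 3). Each panel has its own vertical axis, which does not start at 0, and in none of the panels do the groups overlap.

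Ephrins and Eph receptors signal between neighbouring cells. Of 7 tested ephrin probes 2 were called, both of Efna4, and of 16 tested Eph receptor probes 2 were called, all 4 of these lower in hSRY-ON. The share called was 28.6% for ephrins and 12.5% for Eph receptors, against 26.9% of all tested probes in either direction and 13.3% in the lower direction. Efna4, a ligand anchored by a lipid tail that binds EphA receptors, read 8.62, 8.52 and 8.49 against 7.25, 7.51 and 7.67 at ILMN_1217493. It was 2.09-fold lower there (-1.07 ± 0.14, interval -1.40 to -0.74, adjusted p 0.00338, the smallest among the members). ILMN_2691352 gave 8.54, 8.37 and 8.33 against 6.96, 7.34 and 7.62, a 2.15-fold fall (-1.10 ± 0.18, adjusted p 0.00697). Both Efna4 calls were kept with each array left out and under every other setting tried, with smaller falls of -0.69 and -0.68 where no background correction was made.

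The other ephrin-A ligands did not follow Efna4. Efna1, which is abundant in endothelium, read 10.21, 10.29 and 10.32 against 10.40, 10.81 and 10.37 (0.25, interval -0.10 to 0.61, adjusted p 0.248). Efna5 lay just outside the threshold in the upward direction (0.49, interval 0.13 to 0.85, adjusted p 0.0533). Of the transmembrane ephrin-B ligands, Efnb1 changed by -0.35 (adjusted p 0.0644) and Efnb3 by -0.04 (adjusted p 0.922).

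Ephb4, the receptor that marks venous endothelium, fell from 9.08, 9.29 and 9.05 to 8.65, 8.53 and 8.71, 1.42-fold with no overlap (-0.51 ± 0.12, interval -0.80 to -0.22, adjusted p 0.0236). Its ligand ephrin-B2, the arterial partner encoded by Efnb2, was near background, with 5.35, 5.73 and 5.13 against 6.05, 4.81 and 4.87, detection on 2 hSRY-OFF arrays and 1 hSRY-ON array, and a change of -0.16 (interval -0.98 to 0.65, adjusted p 0.754). So the receptor of this vascular pair fell, while the interval of its ligand was wide enough to include a fall of that size. The Ephb4 call was lost without any 1 hSRY-OFF array or hSRY-ON replicate 2 (adjusted p up to 0.0978) and with the replicate block (adjusted p 0.0692). All 5 tested EphB probes were fitted below 0, as were 7359 of all 13841 tested probes. Among the EphB receptors, Ephb2 (-0.82, adjusted p 0.0537), Ephb6 (-0.45, adjusted p 0.0565), Ephb3 (-0.47, adjusted p 0.111) and Ephb1 (-0.16, adjusted p 0.395) were not called.

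Epha7 was the single EphA receptor called. Its probe ILMN_1228560 read 6.31, 5.80 and 5.96 in hSRY-OFF and 5.38, 5.17 and 5.11 in hSRY-ON mice, where it was not well above background on any array. Epha7 was at least 1.54-fold lower (fitted change -0.80 ± 0.16, adjusted p 0.0138). Without background correction its fitted change was -0.23 and the call was lost, and the other tested Epha7 probe changed by -0.40 with a wide interval (-1.32 to 0.52, adjusted p 0.472). Epha2, a receptor of epithelium and endothelium, read 8.23, 8.66 and 8.31 against 7.95, 8.06 and 7.83 and did not reach the threshold (-0.45, interval -0.81 to -0.10, adjusted p 0.0638). The 4 probes of Epha1 changed by -0.22 to -0.03, and none was called. Epha3 changed by 0.42 (adjusted p 0.0786) at 1 probe and by 0.01 and -0.09 at the others.

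Netrins and their Unc5 receptors held the largest falls. Netrin-3, named Ntn2l on the array, is a secreted netrin. At ILMN_2615312 it read 9.48, 9.43 and 9.38 in hSRY-OFF and 7.90, 7.88 and 8.60 in hSRY-ON mice, 2.47-fold lower (-1.30 ± 0.21, interval -1.79 to -0.82, adjusted p 0.00605). ILMN_1220826 read 6.91, 6.56 and 6.43 against 5.31, 5.75 and 5.59, 2.12-fold lower (-1.08 ± 0.18, adjusted p 0.00671), with detection on 2 of the 3 hSRY-ON arrays. Both calls were kept with each array left out, and the groups were apart at both probes. Without background correction the falls were -0.98 and -0.36. Netrin-4, a basement membrane netrin, did not follow, with 7.17, 7.74 and 7.29 against 7.85, 7.68 and 7.45 (Ntn4; 0.26, interval -0.18 to 0.70, adjusted p 0.336).

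Unc5c, a netrin receptor of the repulsive kind, changed most of all members. It read 10.83, 10.81 and 10.77 in hSRY-OFF and 8.16, 8.59 and 9.88 in hSRY-ON mice. The hSRY-OFF mice were nearly equal and the hSRY-ON mice were spread over a wide range, with replicate 3 nearest to hSRY-OFF. Unc5c was 3.81-fold lower (-1.93 ± 0.40, interval -2.87 to -0.98, adjusted p 0.0144). Its change lay between -2.42 and -1.57 with each array left out, and the call was lost without hSRY-OFF replicate 1 or 2 or hSRY-ON replicate 2 (adjusted p up to 0.055).

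Unc5b, the netrin receptor of endothelium, read 8.81, 8.26 and 7.82 against 7.18, 7.54 and 7.53. Here the hSRY-OFF mice were the spread group, and the lowest of them stood close to the highest hSRY-ON mouse. Unc5b was 1.84-fold lower (-0.88 ± 0.26, interval -1.48 to -0.28, adjusted p 0.0424). Its call was kept without hSRY-OFF replicate 3 and lost in the other 5 such fits (adjusted p up to 0.114, change -1.12 to -0.62), and it was lost with the replicate block (adjusted p 0.0836). Without background correction its fall was -0.56. Dcc, the receptor through which netrins attract axons, was not analysed here, and its relative Neo1 changed by 0.24 (adjusted p 0.212).

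Robo1, a receptor of Slits, fell from 10.34, 10.46 and 10.52 to 9.53, 9.43 and 10.06, 1.70-fold with no overlap (-0.77 ± 0.18, interval -1.2 to -0.34, adjusted p 0.0227). As for Unc5c, hSRY-ON replicate 3 was the nearest to the hSRY-OFF mice. The Robo1 call was lost without any 1 hSRY-OFF array or hSRY-ON replicate 2 (adjusted p up to 0.0798). Its ligand Slit2 read 12.12, 12.31 and 12.35 against 11.75, 11.47 and 12.14, with 1 hSRY-ON mouse inside the hSRY-OFF range, and was not called (-0.47, interval -0.91 to -0.03, adjusted p 0.102). Slit3 read 8.15, 8.21 and 8.14 against 8.07, 8.02 and 8.26, a change of -0.05 (interval -0.33 to 0.23, adjusted p 0.787). Robo2 changed by -0.28 (adjusted p 0.336). The endothelial Robo4 changed by -0.30 (adjusted p 0.138) at 1 probe and by -0.23 (adjusted p 0.322) at its other tested probe.

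Set side by side, ligand and receptor gave the same call in some pairs and not in others. Sema3e and Plxnd1 both fell, as did netrin-3 and both tested Unc5 receptors. Ephb4 and Robo1 fell without a call for Efnb2 or Slit2, and Sema6a and Plxna2 moved in opposite directions. By side of the pair, 6 of 23 tested receptor probes were called lower (26.1%) and 1 higher (4.35%). Of 35 tested ligand probes, 8 were called lower (22.9%) and 5 higher (14.3%). Among all tested probes the shares were 13.3% lower and 13.6% higher. Whether ligands and receptors differed was not tested.

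**Figure D4:**
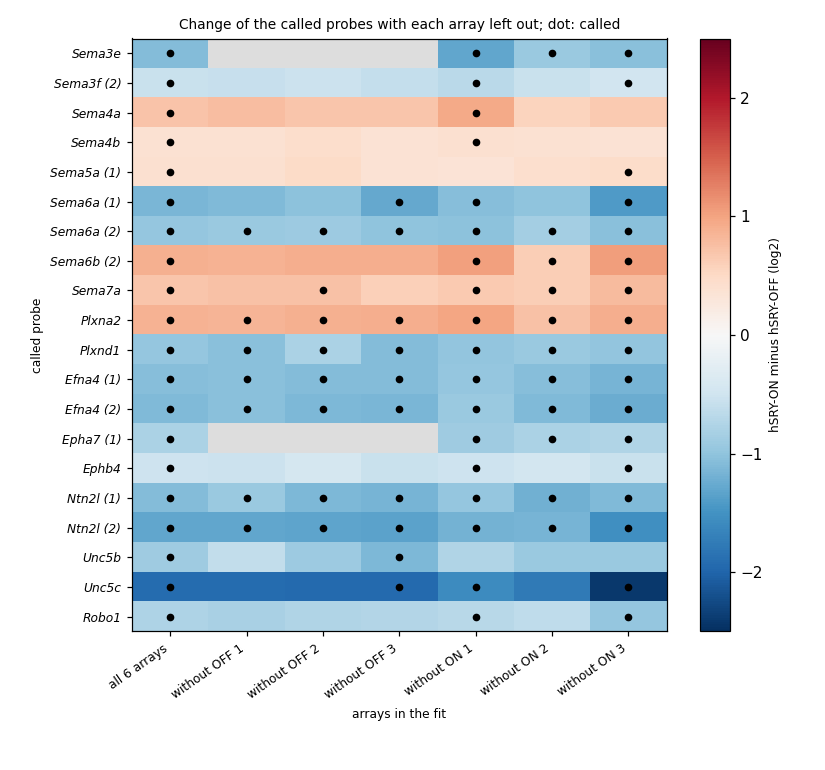
Change of the 20 called guidance probes (rows) in the fit of all 6 arrays and in the 6 fits that each left out 1 array (columns), as hSRY-ON minus hSRY-OFF on the log2 scale by colour, blue lower and red higher. A dot marks an adjusted p under 0.05 and grey marks a probe that no longer passed the detection filter. Every coloured cell of a row has the same sign, while 11 calls were lost when hSRY-OFF replicate 1 was left out and 2 calls when hSRY-ON replicate 1 was.

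The hSRY-ON mice differed among themselves. Of the 14 probes called lower, hSRY-ON replicate 3 was the highest hSRY-ON mouse for 9, replicate 1 for 3 and replicate 2 for 2. Of the 6 called higher, replicate 2 was the highest for 4. The SD was larger in hSRY-ON than in hSRY-OFF for 39 of 58 tested members (67.2%), against 73.7% of all tested probes. Arrays correlated at 0.991 to 0.993 within hSRY-OFF, 0.972 to 0.98 within hSRY-ON and 0.935 to 0.959 between the groups.

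Markers of nerve and of tissues beside the lung were read on the same arrays. Of 9 neuron and Schwann cell markers on the array, 5 were detected, and Dbh, Prph, S100b and Th were not. Their sum was 1392 to 1653 in hSRY-OFF and 1617 to 1783 in hSRY-ON mice, and 2 were called higher and none lower. Of 11 thymocyte and T cell markers, 6 were detected (Cd4, Cd8a, Dntt, Rag1 and Rag2 were not), with sums of 1848 to 2111 and 556 to 1437 and 4 called lower. Cardiac muscle markers summed to 6175 to 8152 and 3791 to 8497, and of 6 tested genes Nppa was called higher (5.55) and Myl4 lower (-1.94). Within hSRY-ON, replicate 3 had the highest sum of thymocyte and T cell markers and of proliferation markers. Its cardiac muscle sum was the lowest, but this sum includes Nppa, which read 12.32, 12.39 and 9.30 in hSRY-ON mice. Myl4 read 10.48, 9.93 and 11.12 there and was highest in replicate 3. In hSRY-OFF mice Nppa read 5.11, 5.32 and 6.94 and Myl4 12.24, 12.47 and 12.63. The part of these markers in the guidance results was not tested.

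Partners and downstream genes of guidance signalling were counted from a separate list of coreceptors and intracellular effectors. It matched 118 probes for 60 genes, of which 65 probes were tested. Of these 65, 11 were called lower (16.9%, background 13.3%) and 4 higher (6.15%, background 13.6%). The median change of the 65 was -0.21, against -0.03 for all tested probes. The share called in either direction was 23.1%, below the 26.9% of all tested probes. Itga1, a subunit of the integrin that binds Sema7a, read 9.61, 9.75 and 9.48 against 8.25, 7.63 and 8.0 and fell by 1.65 on the log2 scale (adjusted p 0.00187). Sema7a itself rose. The tested probes of Itgb1, an integrin subunit on the same list, changed by -0.58 (adjusted p 0.0529) and 0.22 (adjusted p 0.245), and neither was called.

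Among genes of the CRMP family, whose proteins relay semaphorin signals to the cytoskeleton, Dpysl4 was called lower and Dpysl5 higher. The tested probes of Dpysl2 changed by 0.45, -0.17 and -0.26 and that of Dpysl3 by -0.39. None of these was called (adjusted p 0.111 to 0.532), and Crmp1 was not tested. Dpysl4 read 6.67, 6.48 and 6.94 against 4.63, 4.49 and 5.26, where it was not well above background on any array, and was at least 2.45-fold lower at this probe (adjusted p 0.00252). The other tested Dpysl4 probe overlapped between the groups and was not called (-0.21, interval -0.73 to 0.31, adjusted p 0.507). Dpysl5 read 5.41, 5.60 and 5.23 against 6.82, 8.14 and 6.68 and rose (1.80, adjusted p 0.0141), with detection on 2 of the 3 hSRY-OFF arrays. The largest hSRY-ON value of Dpysl5 was that of replicate 2. Plxdc1, an endothelial membrane protein with a plexin-like domain, fell at 1 probe (-1.12, adjusted p 0.0077), and its other tested probe changed by -0.61 (adjusted p 0.0951). Mical2, an enzyme that takes actin filaments apart, fell (-0.84, adjusted p 0.0106). Rgs3, a regulator of G protein signals, fell at 2 of 3 tested probes (-0.93 and -0.57), both dim (hSRY-OFF means 6.45 and 6.10). Its brighter tested probe (hSRY-OFF mean 10.32) was not called (-0.10, adjusted p 0.659). Gipc1, an adaptor that binds neuropilin 1, fell at 2 of its 4 tested probes (-0.48 and -0.52). The other tested Gipc1 probes changed by -0.21 and -0.03 and were not called. The kinase Fyn was at least 1.27-fold lower at 1 probe (adjusted p 0.0142), where no hSRY-ON array was well above background, and was not called at the other tested probe (-0.44, adjusted p 0.0922). As for Sema3e and Epha7, the called probes of Dpysl4 and Fyn passed the detection filter through hSRY-OFF arrays alone, and they are 2 of the 11 called lower.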

How the data were processed

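Lungs of 3 hSRY-OFF and 3 hSRY-ON mice gave 1 array each, grouped by the sample labels, which describe separate mice and give no slide, scan or batch. The authors deposited, for each probe and array, an unnormalized intensity and a detection p-value. The authors' summary software is not given in the sources used here, and limma is named in the submitters' processing notes. The study's methods name TCC, a count method. Because the deposited values are intensities, the fits were made with limma 3.58.1 (R 4.3.3).

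Background was estimated by normexp from the detection p-values with an offset of 16, followed by quantile normalization and log2. The offset compresses the changes of dim probes, and quantile normalization removes any overall shift between groups. The filter kept probes detected (p under 0.05) on 3 or more of 6 arrays (13841 of 25697, 53.9%). Arrays had median intensities of 177.1 to 204 and 13191 to 14134 detected probes, and their number limits the precision. Groups were compared with lmFit and eBayes, 2-sided, with Benjamini-Hochberg adjustment over all kept probes and a threshold of 0.05 ("called"). Intervals are 95%. Probes of a gene were kept apart. A probe not detected on any array of a group has a bound in place of a fold. The script was tested on simulated data.

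The symbol rule and lists were chosen with earlier results of these data known. Named genes were all called members, 12 members known in lung vessels or septa, Nrp1 and Nrp2, the 8 called partner or downstream genes of smallest p, and near relatives of these. Neo1 and Robo4 were named after their values were seen. Symbols are those of the array, and RefSeq (GRCm38.p6) supplied promoters and the name Ntn3 for Ntn2l. The replicate numbers were not treated as pairs in the main fit. Deviations of arrays of the same number correlated at -0.107, 0.0958 and -0.0927, and those of different numbers at -0.0885 to 0.162. With 3 arrays per group, such correlations cannot exclude a pairing. Alternatives were other background corrections, normalizations, filters and variance models, the replicate number as a block, a threshold of 0.01 and leaving out each array.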

Additional observations from a re-analysis of the deposited data

How the results depend on the processing

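Of the 20 called guidance probes, 8 kept their call under every alternative in which they were tested: both of Efna4, both of Ntn2l, Plxna2, Plxnd1, Sema3e and 1 of Sema6a. Sema3e could not be tested without an hSRY-OFF array. At an adjusted p under 0.01 the counts were 1326 of all probes, 8 members (1 higher, 7 lower) and 3 partner and downstream probes. Calls were also lost for Sema3f with median normalization (adjusted p 0.0865), for Unc5b, Sema4a and Sema5a without the detection filter (0.0652, 0.0593 and 0.0509), for Unc5b and Sema5a with array weights (0.0638 and 0.0673) and for Sema4a, Sema6b and Epha7 without background correction with a single scaling factor (0.0582, 0.0601 and 0.0894). Epha7 was also lost without background correction alone (0.0627). Leaving out 1 array at a time gave 1507 to 4385 called probes in all, 7 to 23 members, 1 to 6 higher, 6 to 17 lower and 4 to 16 partner and downstream probes, with the fewest members called without hSRY-OFF replicate 1. With the replicate number as a block, which the arrays did not bear out as a pairing, 14 members were called (3 higher, 11 lower), 7 partner and downstream probes and 2657 probes in all.

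The median change of the members (-0.31) was -0.12 without background correction, -0.20 with an offset of 50 and -0.14 without background correction with a single scaling factor. That of semaphorins (-0.37) was -0.14 and -0.14 under the first and last of these, and it turned to 0.01 over the 16 probes with a detection p under 0.01 on all 6 arrays. That of Eph receptors (-0.20) was -0.11 without background correction and -0.32 to -0.13 with each array left out. That of ephrins (-0.16) was -0.05 without background correction, -0.04 when a single scaling factor was used as well, -0.35 under the stricter filter, -0.32 with array weights and -0.29 to -0.11 with each array left out. Fewer and brighter probes pass the stricter filter, and the cause of the other shifts was not tested. The uncalled changes of Efnb2 turned to 0.06 without hSRY-ON replicate 2 and 0.02 without replicate 3, and that of Slit3 to 0.00 without hSRY-ON replicate 2.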
